A study of Homo sapiens with 2 samples.

Results

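The Krüppel-like factors (KLFs) were examined after knockdown of the long non-coding RNA CRNDE in NB4 cells, a line grown from human acute promyelocytic leukemia (APL) with the fusion PML/RARα. The members were taken by name, as every gene listed with the symbol KLF and a number, and 11 of the 11619 listed genes met this rule. RNA-seq was performed on 1 library of cells infected with lentivirus for a CRNDE shRNA (sh-CRNDE) and 1 library of cells infected with lentivirus for a non-targeting control shRNA (sh-Control), both collected on day 3 and both from the same parental line without further treatment. The shRNAs were expressed from a vector that also encodes the fluorescent protein ZsGreen1, used to select infected cells, and the study made more than one CRNDE shRNA, without a statement in the sources used here on the one sequenced. Each group has 1 library, so differences lack a check by replicates and were not tested for significance. In a bulk library, a lower value cannot be told apart between fewer cells that express a gene and less RNA per cell.

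KLFs are transcription factors that bind GC-rich and CACCC sequences through C2H2 zinc fingers at their carboxy-terminal end, a domain they share with the SP factors. The rest of the protein differs between members and sets the partners they recruit. KLF3, KLF8 and KLF12 bind the CTBP corepressors, KLF9, KLF10, KLF11, KLF13, KLF14 and KLF16 bind the corepressor SIN3A, and KLF1, KLF2, KLF4, KLF5, KLF6 and KLF7 are known mostly as activators that work with acetyltransferases. In blood cells, KLF1 is known for erythroid genes, KLF2 for lymphocyte quiescence and KLF4 for monocyte differentiation.

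The deposited values are FPKM, a unit that corrects for transcript length and sequencing depth, so levels can be set side by side between genes. The change of a gene is its difference in log2(FPKM + 1), above 0 where sh-CRNDE was higher, and a gene is called higher or lower here when this change is past 1.5-fold, a log2 difference of 0.585. The added 1 understates the change of lowly expressed genes, so the plain ratio of the FPKM values is given as well. CRNDE itself had a change of -1.28, with 5.92 FPKM in sh-Control against 1.85 in sh-CRNDE. Of the promyelocyte markers, MPO, AZU1, PRTN3, CTSG and CD33 were listed and ELANE was not. All but CD33 were lower in sh-CRNDE, as were 8.83% of all genes. The summed level of the 5 genes was 1404 FPKM in sh-Control against 814 in sh-CRNDE. Most of this sum was MPO, at 1135 FPKM in sh-Control against 738 in sh-CRNDE. None of 5 erythroid markers was listed, and the T cell marker CD3D was at 0.991 FPKM in sh-Control against 1.16 in sh-CRNDE. COL1A1 and COL1A2 were not listed, whereas PECAM1 and EPCAM were at 2.71 to 4.82 FPKM in both libraries. The part of these markers in the results for the KLF genes was not tested.

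GENCODE release 44 holds 18 genes that fit the naming rule. The 11 genes found in the files were KLF3, KLF4, KLF5, KLF6, KLF7, KLF9, KLF10, KLF12, KLF13, KLF15 and KLF16, on 9 chromosomes. The other 7, KLF1, KLF2, KLF8, KLF11, KLF14, KLF17 and KLF18, were not listed and were not analysed here. Every listed gene of the series is above 0.5 FPKM in at least one library, and 10 of the 11 KLF genes were above it in both. KLF15 was above it in sh-Control alone, and KLF5, at 0.553 FPKM in sh-Control against 0.501 in sh-CRNDE, lay just inside it. No KLF gene had a value of 0, and none has a single exon.

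All 11 members share the same arrangement of the DNA-binding domain. In the coding sequences of the canonical GENCODE transcripts, each protein held 3 C2H2 zinc fingers, found with a pattern of spaced cysteines and histidines, in a region of 81 residues that ended 1 to 43 residues before the end of the protein. Over the 55 pairs of members, this region was 60.5% to 95.1% identical, with a median of 66.7%, whereas the median identity of whole aligned proteins was 41.2%. KLF6 and KLF7 were the most alike in the finger region, at 95.1%, followed by KLF3 and KLF12 at 91.4%. The longest run of bases shared by the canonical transcripts of any pair of members was 26, in KLF6 and KLF7, so reads longer than this could be told apart between members. Among other KLF loci, the pseudogene KLF7P1 shared a run of 60 bases with KLF7, KLF3P1 shared 45 bases with KLF3, and KLF14 shared 34 bases with KLF16. None of these loci was listed, and how reads from them were assigned is not given. The exons of KLF3, KLF4, KLF7 and KLF16 also overlap those of antisense long non-coding RNAs, by 265 bases with KLF3-AS1 in the case of KLF3, and the library kit named does not mark the strand, so their reads cannot be told apart there.

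The KLF genes were expressed at low levels in NB4 cells. Their median was 1.02 FPKM in sh-Control against 1.75 in sh-CRNDE, against 3.95 and 3.89 FPKM over all listed genes. The middle member was KLF9 in sh-Control and KLF10 in sh-CRNDE, so these medians do not follow the same gene. The median change of the members was -0.13. In each library 7 members were at 1 FPKM or more, the same genes in both, and 4 were under 1 FPKM in both. The summed level of the 11 genes was 29.8 FPKM in sh-Control against 26.3 in sh-CRNDE, and the 3 highest members made up 66.04% and 65.0% of it. KLF16 and KLF13, both SIN3A-binding repressors, were the highest in each library.

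**Figure D1:**
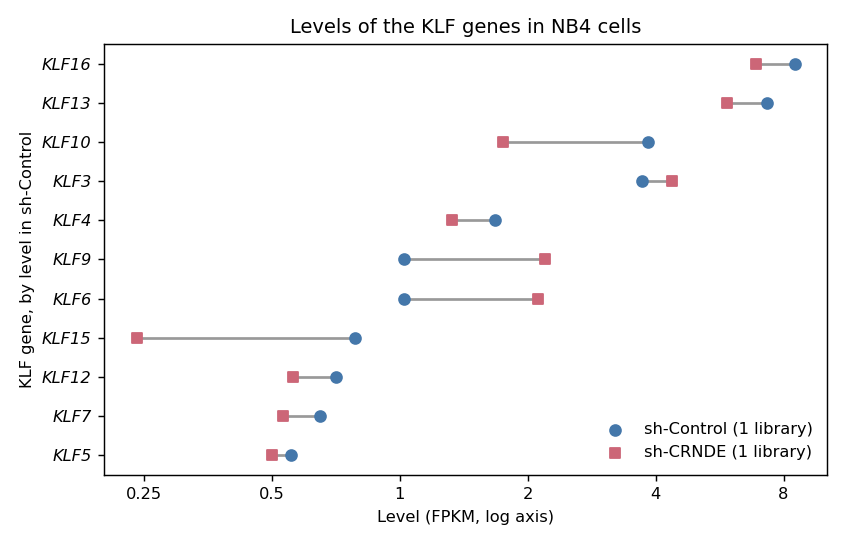
Levels of the 11 KLF genes in FPKM (log axis), with circles for the sh-Control library and squares for the sh-CRNDE library, joined by a line for each gene. KLF9 and KLF6 moved to the right, from 1.02 to above 2.1 FPKM, KLF10 moved to the left, from 3.85 to 1.75 FPKM, and KLF15 ended lowest, at 0.241 FPKM.

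The order of the levels differed between the libraries in its middle part. KLF16 and KLF13 had ranks 1 and 2 in both libraries, and KLF16 was 1.16 times KLF13 in sh-Control and 1.17 times in sh-CRNDE. In sh-Control, KLF10 had rank 3 and KLF3 had rank 4, at 3.85 and 3.71 FPKM. In sh-CRNDE, KLF3 had rank 3 and KLF10 had rank 6, and KLF3 was 2.50 times KLF10. KLF9 and KLF6 stood at nearly the same level in each library and had ranks 4 and 5 in sh-CRNDE. The level of KLF10 was 3.76 times that of KLF9 in sh-Control and 0.796 times in sh-CRNDE. As there was no spread between replicates, neighbours in this order could not be told apart from equal levels, which applies most to KLF9 and KLF6, whose levels had a ratio of 1.003 in sh-Control.

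After CRNDE knockdown, KLF6 and KLF9 were higher, KLF10 was lower, and the other 8 members did not pass 1.5-fold. Of all genes, 17.2% were past 1.5-fold in either direction, 8.38% higher and 8.83% lower. Among the KLF genes the share was 27.3%, but 1 gene more or less moves this share by 9.09 points, so it is not a result about the family. Among genes whose mean level lay within the range of the KLF genes, 16.3% were past 1.5-fold. The median change of the KLF genes was -0.13, against -0.0072 over all genes, for which the 25th and 75th percentiles were -0.26 and 0.23. At any size, 3 members were higher in sh-CRNDE (KLF3, KLF6 and KLF9) and 8 were lower, which is 72.7% of the members, against 50.8% of all genes that were lower. Of these 8, KLF15 was listed through its value in sh-Control alone. No member was past 2-fold on the log2(FPKM + 1) scale, as were 6.66% of all genes.

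**Figure D2:**
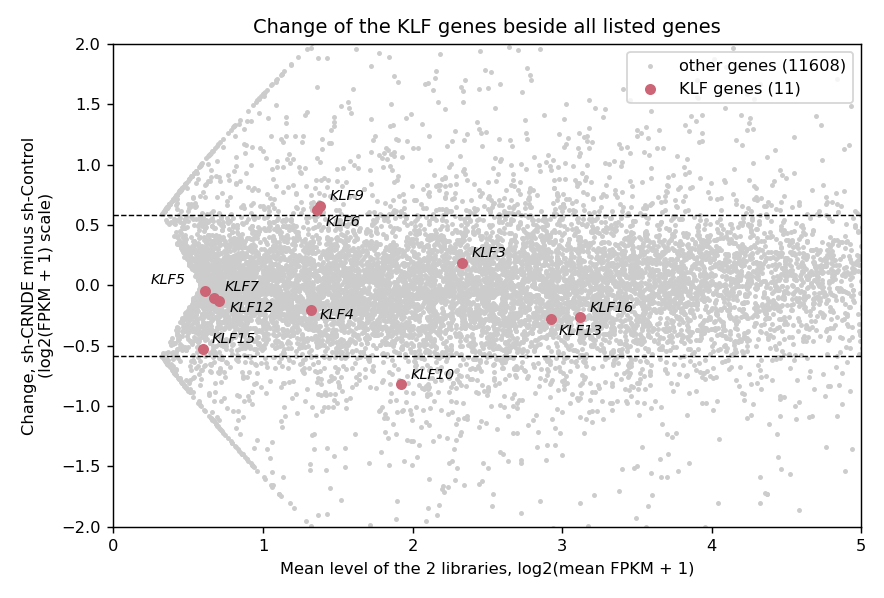
Change between the libraries (sh-CRNDE minus sh-Control, log2(FPKM + 1) scale) against the mean level of each gene, with the 11 KLF genes in red, 11608 other genes in grey and dashed lines at 1.5-fold. KLF9 and KLF6 lie just above the upper line and KLF10 below the lower line, and 1025 genes fall outside the axes.

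KLF9 (ENSG00000119138), a repressor that glucocorticoids and thyroid hormone are known to induce, was at 1.02 FPKM in sh-Control against 2.20 in sh-CRNDE. Its level in sh-CRNDE was 2.14 times that in sh-Control, a change of 0.66, and 93.2% of all genes had a lower change. KLF9 has 2 exons and lies at chr9:70384604-70414657 (GRCh38, minus strand). KLF6 (ENSG00000067082), an activator known from injury and growth control, was at 1.02 FPKM in sh-Control against 2.12 in sh-CRNDE, which is 2.07 times as high, a change of 0.62. It has 4 exons at chr10:3775996-3785281, also on the minus strand, and 92.5% of all genes had a lower change. Thus the pair had nearly the same level in each library and nearly the same change. Once the median change of the 500 genes nearest in GC content was subtracted, both were short of 1.5-fold, with KLF9 at 0.57 and KLF6 at 0.55. With a pseudocount of 0.1 they were at 1.03 and 0.98.

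KLF10 (ENSG00000155090), an early gene of the TGF-beta response and a repressor, was at 3.85 FPKM in sh-Control against 1.75 in sh-CRNDE. It was 2.20 times lower in sh-CRNDE, a change of -0.82, and 4.73% of all genes had a lower change. Every member ranked above KLF10 in sh-CRNDE apart from KLF16 and KLF13 had been below it in sh-Control. Its change stayed past 1.5-fold under every scaling and pseudocount tried, from -1.13 with a pseudocount of 0.01 to -0.80 after quantile normalization.

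The remaining SIN3A-binding members were the most abundant ones. KLF16 was at 8.49 FPKM in sh-Control against 6.90 in sh-CRNDE, a change of -0.27. KLF13, known for the late activation of the chemokine gene CCL5 in T cells, was at 7.33 and 5.87 FPKM, a change of -0.28. Both values are short of 1.5-fold, and the canonical transcripts of both genes are rich in GC, at 67.8% in KLF16 and 57.7% in KLF13. After this subtraction for GC content, KLF13 was at -0.094 and KLF16 was at 0.12, that is in the other direction. The summed level of the 4 SIN3A-binding genes listed was 20.7 FPKM in sh-Control against 16.7 in sh-CRNDE. Within this group, 1 gene was higher, 1 was lower and 2 did not pass 1.5-fold, against 8.38% higher and 8.83% lower among all genes. With 4 genes listed, this count is not a result about the group. After the subtraction for GC content, KLF10 alone of the group was past 1.5-fold.

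The CTBP-binding members did not pass 1.5-fold. KLF3, a repressor with broad expression in blood cells, was at 3.71 FPKM in sh-Control against 4.36 in sh-CRNDE, a change of 0.19. KLF12 was at 0.706 and 0.560 FPKM, a change of -0.13. KLF3 was the only member besides KLF6 and KLF9 with a higher value in sh-CRNDE, and its direction was the same under each alternative.

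Apart from KLF6, the activators had changes between -0.20 and -0.049. KLF4 was at 1.67 FPKM in sh-Control against 1.32 in sh-CRNDE, which is 1.26 times lower, a change of -0.20. KLF7, known from neurons and stem cells, was at 0.649 and 0.532 FPKM, a change of -0.11. KLF5, known for the growth of epithelial cells, had the smallest change of all members, -0.049. KLF6 and KLF7, the closest pair by their finger region, were thus on either side of 0, at 0.62 and -0.11.

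KLF15, a regulator of glucose and amino acid metabolism that belongs to none of these groups, was at 0.785 FPKM in sh-Control against 0.241 in sh-CRNDE. By the plain ratio it was 3.26 times lower, the largest ratio of any member, but on the log2(FPKM + 1) scale its change of -0.52 did not pass 1.5-fold. KLF15 was above 0.5 FPKM in sh-Control alone, so it was listed through the library in which it was high. Its direction and ratio were favoured by that limit. With a pseudocount of 0.1 the change was -1.38, and 28.4% of all genes were then past 1.5-fold. At such levels a few fragments decide the value, and the depth of the libraries is unknown.

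The study also worked on the miR-181 family, a group of miRNAs that share their seed, the bases 2 to 8 that pair with target RNAs. The mature sequences in RefSeq (GRCh38.p14) are shown to give this shared seed, in capitals.
miR-181a-5p: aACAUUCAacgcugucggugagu
miR-181b-5p: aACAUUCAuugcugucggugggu
miR-181c-5p: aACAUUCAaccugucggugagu
miR-181d-5p: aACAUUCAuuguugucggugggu

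The match to this seed was searched for in the 3' UTRs of the canonical GENCODE transcripts, in the sense strand. It was found in 6 of the 11 KLF genes, with 8 matches in all, and in 21.4% of the 9946 protein-coding genes with an annotated 3' UTR. The 3' UTRs of the KLF genes are long, with a median of 3172 bases. Of the 1948 genes whose 3' UTR was at least that long, 50.7% had a match. The members of at least that length were KLF3, KLF6, KLF7, KLF9, KLF12 and KLF13, and all but KLF13 had a match. The other members have shorter 3' UTRs, so the share over all KLF genes is not set against the 50.7%. The 8 matches are shown with 10 bases on each side, with the match in capitals, since they lie in the genes that were higher as well as in some that were not.
KLF3 site 1, chr4:38700860-38700886, plus strand: actaaagatgTGAATGTttaatgtacc
KLF6 site 1, chr10:3779134-3779160, minus strand: aaaagtagttTGAATGTtttgtgtgta
KLF6 site 2, chr10:3776582-3776608, minus strand: tatttctgtaTGAATGTattttttatt
KLF7 site 1, chr2:207078785-207078811, minus strand: ggattatattTGAATGTgtggtgcatc
KLF7 site 2, chr2:207078393-207078419, minus strand: tggtctcattTGAATGTggcagaacaa
KLF9 site 1, chr9:70386642-70386668, minus strand: gggttttattTGAATGTgtgcataaca
KLF12 site 1, chr13:73691498-73691524, minus strand: tataagggacTGAATGTgaggtaactc
KLF15 site 1, chr3:126342811-126342837, minus strand: tcacatcctaTGAATGTatgtaaataa

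A match was present in each of the 3 members with a higher value in sh-CRNDE, with 2 in KLF6 and 1 each in KLF9 and KLF3. Among the 8 members with a lower value, 3 had a match, namely KLF7, KLF12 and KLF15, whereas KLF4, KLF5, KLF10, KLF13 and KLF16 had none in this annotation. The second match of KLF6 and the match of KLF15 are followed by an A, which is known to favour miRNA binding, and these genes had changes of opposite sign, 0.62 and -0.52. Over all protein-coding genes, the median change was 0.049 in genes with a match and -0.033 in genes without one, and 55.9% and 46.4% of them were higher at any size. The genes with a match also had longer 3' UTRs, with a median of 2957.5 bases against 958 bases, and the part of 3' UTR length in this difference was not tested. A match is a description of the sequence and no evidence of binding.

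**Figure D3:**
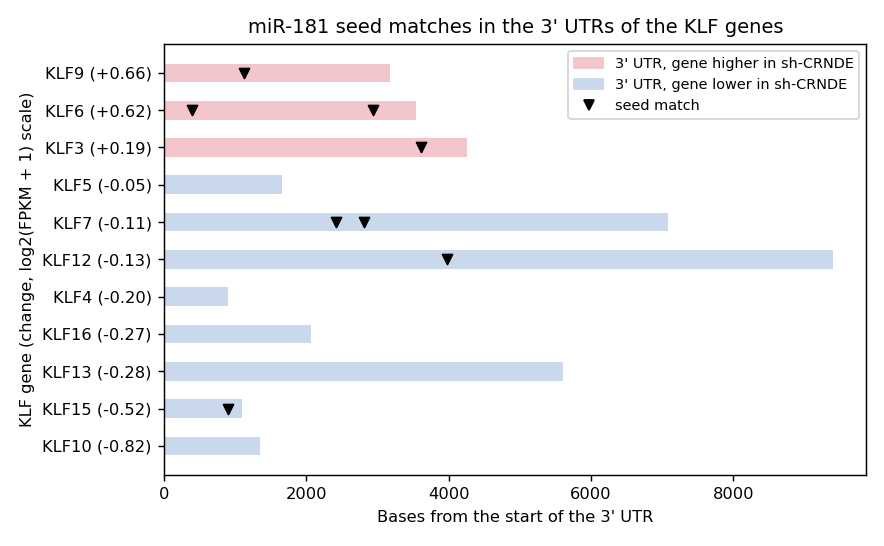
Length of the 3' UTR of each KLF gene in bases, ordered by the change (in brackets, log2(FPKM + 1) scale), with triangles at the matches to the miR-181 seed. KLF9, KLF6 and KLF3, the members with a higher value in sh-CRNDE, each hold at least 1 match, and KLF10, the lowest in change, holds 0.

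Promoters of 300 bases from RefSeq were found for 9 of the 11 genes and not for KLF3 and KLF10, with 250 bases before the start and 50 after it. Where several were given for a gene, the promoter with the start nearest to its annotated 5' end was used. Those of KLF6 and KLF9 are shown, since these genes had nearly the same level and change, with capitals for the CACCC motif of KLFs (or GGGTG, its reverse) and for the GC box GGGCGG (or CCGCCC) of SP factors, which do not overlap here.
KLF6 promoter, chr10:3785160-3785459, minus strand: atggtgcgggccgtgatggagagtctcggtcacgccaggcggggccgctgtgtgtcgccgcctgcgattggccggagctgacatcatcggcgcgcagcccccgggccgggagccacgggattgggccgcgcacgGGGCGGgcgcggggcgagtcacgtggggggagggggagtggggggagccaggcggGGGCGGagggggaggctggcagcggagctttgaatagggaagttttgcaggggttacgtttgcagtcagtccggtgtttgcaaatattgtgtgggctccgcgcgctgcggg
KLF9 promoter, chr9:70414608-70414907, minus strand: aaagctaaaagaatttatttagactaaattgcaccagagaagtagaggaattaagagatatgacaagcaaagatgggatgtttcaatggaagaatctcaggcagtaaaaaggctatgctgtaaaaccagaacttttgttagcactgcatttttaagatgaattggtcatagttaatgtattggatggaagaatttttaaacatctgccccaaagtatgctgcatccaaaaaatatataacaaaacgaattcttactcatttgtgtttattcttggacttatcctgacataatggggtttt

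The pair of promoters differed in composition, with a GC content of 70.7% in KLF6 and 32.7% in KLF9, against a median of 58.7% over all 35116 promoters of this length. The KLF6 promoter held the GC box 2 times and the CACCC motif 0 times, and the KLF9 promoter held neither. Over the 9 KLF promoters, the CACCC motif was in 4 and the GC box in 6, against 59.9% and 45.0% of all promoters. KLF12 had the most CACCC motifs, 5 on either strand, and KLF16 the most GC boxes, 7. The promoter used for KLF7, chr2:207167197-207167496, lies inside the annotated gene, whose 5' end is at 207173856. So does that used for KLF4, chr9:107489720-107490019, in a gene whose 5' end is at 107490482.

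The partners of the KLFs showed no common direction. The CTBP corepressors were short of 1.5-fold, with CTBP1 at 12.2 FPKM in sh-Control against 9.68 in sh-CRNDE and CTBP2 at 5.21 and 5.52 FPKM. Of 13 listed genes of the SIN3 complex, 1 was higher, 2 were lower and 10 did not pass, and their median change was 0.043. SAP18 was higher, from 20.5 to 44.02 FPKM, a change of 1.07. SUDS3 was lower, from 15.5 to 4.79 FPKM, and SAP30 was lower, from 6.66 to 4.06 FPKM, with changes of -1.51 and -0.60. SAP30 was short of 1.5-fold after the subtraction for GC content, at -0.55, and with a pseudocount of 0.1 or 0.01 or after rescaling without MT- genes, 2 genes of the complex were higher. SIN3A itself, which the KLF9 group binds, was at 12.4 FPKM in sh-Control against 11.6 in sh-CRNDE. Of the 4 acetyltransferases, EP300 was lower, from 8.38 to 5.18 FPKM, a change of -0.60, and CREBBP, KAT2A and KAT2B did not pass, with changes between -0.26 and -0.18. These counts stand beside the 8.38% of all genes that were higher and the 8.83% that were lower.

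The SP factors, the closest relatives of the KLFs, were all lower in value. Of the 4 that were listed, SP4 was lower, from 4.48 to 2.10 FPKM, a change of -0.82, and SP2 was lower, from 5.26 to 2.73 FPKM, a change of -0.75. SP1 and SP3, the broadly expressed members that bind GC boxes, were short of 1.5-fold, with changes of -0.13 and -0.15. Over all genes, 8.83% were past 1.5-fold lower and 50.8% were lower at any size, and with 4 genes listed nothing particular to the SP factors can be read from their count. The direction of all 4 was the same under each scaling, but SP2, at -0.56, was short of 1.5-fold after the subtraction for GC content.

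Several pathways are known to induce members of the family. In the TGF-beta pathway, which induces KLF10, the receptor gene TGFBR1 was higher, from 5.71 to 13.9 FPKM, a change of 1.15, and the ligand gene TGFB1 was lower, from 9.28 to 5.30 FPKM, a change of -0.71. TGFBR2, SMAD2, SMAD3 and SMAD4 did not pass, with changes between -0.17 and 0.23. In the MAPK7 and MEF2 pathway, which induces KLF2 and KLF4, MAPK7 was lower, from 2.75 to 1.48 FPKM, a change of -0.59, and MAP2K5, MEF2A and MEF2D did not pass. TGFB1 and MAPK7 were short of 1.5-fold after the subtraction for GC content, at -0.37 and -0.35. MAPK7 was also short of it after quantile normalization, at -0.56. Of the glucocorticoid receptor gene NR3C1 and 4 genes that respond to it along with KLF9, PER1 was lower, from 3.91 to 2.17 FPKM, a change of -0.63, and none was higher. NR3C1 was at 6.44 FPKM in sh-Control against 5.77 in sh-CRNDE. FKBP5, DUSP1 and TSC22D3 did not pass 1.5-fold, with changes of 0.24, 0.14 and -0.49. After the subtraction for GC content, PER1 was at -0.33, and with the smaller pseudocounts or after rescaling, 2 genes of this list were lower. With a pseudocount of 0.1, 28.4% of all genes were past 1.5-fold in either direction. As reported, the counts of these pathway lists stand beside the 8.38% of all genes that were higher and the 8.83% that were lower. The part of glucocorticoid signalling in the level of KLF9 was not tested.

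KLF4, KLF6 and KLF10 are also immediate early genes, which growth factors and stress switch on within minutes. Of 17 other immediate early genes, 10 were listed, of which 3 were lower, 1 was higher and 6 did not pass, against 8.83% lower and 8.38% higher among all genes. FOSL2 was lower, from 6.39 to 0.489 FPKM, a change of -2.31, and JUND was lower, from 6.90 to 3.89 FPKM, a change of -0.69. JUNB was at 14.7 FPKM in sh-Control but listed at 0 after the knockdown. IER5 was listed at 0 in sh-Control but reached 2.55 FPKM after the knockdown. JUNB and IER5 have a single exon, and an estimate of 0 in such a gene can be a failed one, so no fold change is given, and without genes listed at 0 the counts were 2 lower and 0 higher. JUNB, FOSL2, ATF3 and FOS were above 0.5 FPKM in sh-Control alone and IER5 in sh-CRNDE alone, so these genes were listed through the library in which they were high, and the counts say nothing of the list as a whole. Of the list genes at 1 FPKM or more in each library, JUND alone was past 1.5-fold, and it was short of it, at -0.31, after the subtraction for GC content. With a pseudocount of 0.1 or 0.01 or after rescaling, 6 genes of the list were lower. At a pseudocount of 0.1, 28.4% of all genes were past 1.5-fold in either direction. The genes listed through sh-Control alone were favoured in this count too, so it likewise says nothing of the list as a whole.

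Ubiquitin ligases of KLF proteins and known KLF targets had no gene past 1.5-fold on the log2(FPKM + 1) scale. Only 4 ligase genes and 2 target genes were listed. As 17.2% of all genes were past 1.5-fold in either direction, this absence is not a result about either list. FBXW7, a ligase subunit for KLF2 and KLF5, was at 1.08 FPKM in sh-Control against 2.02 in sh-CRNDE, a change of 0.54, and WWP1, ITCH and SIAH1 had changes between -0.37 and 0.14. Of 10 known targets, BCL11A and E2F2 were listed, with changes of -0.41 and 0.10. With a pseudocount of 0.1 or 0.01 or after rescaling, FBXW7 was past 1.5-fold higher and BCL11A past 1.5-fold lower. The share of all genes past it in either direction was 28.4% at a pseudocount of 0.1. The cyclin-dependent kinase inhibitor CDKN1A, a target of KLF4 and KLF6, was not listed.

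**Figure D4:**
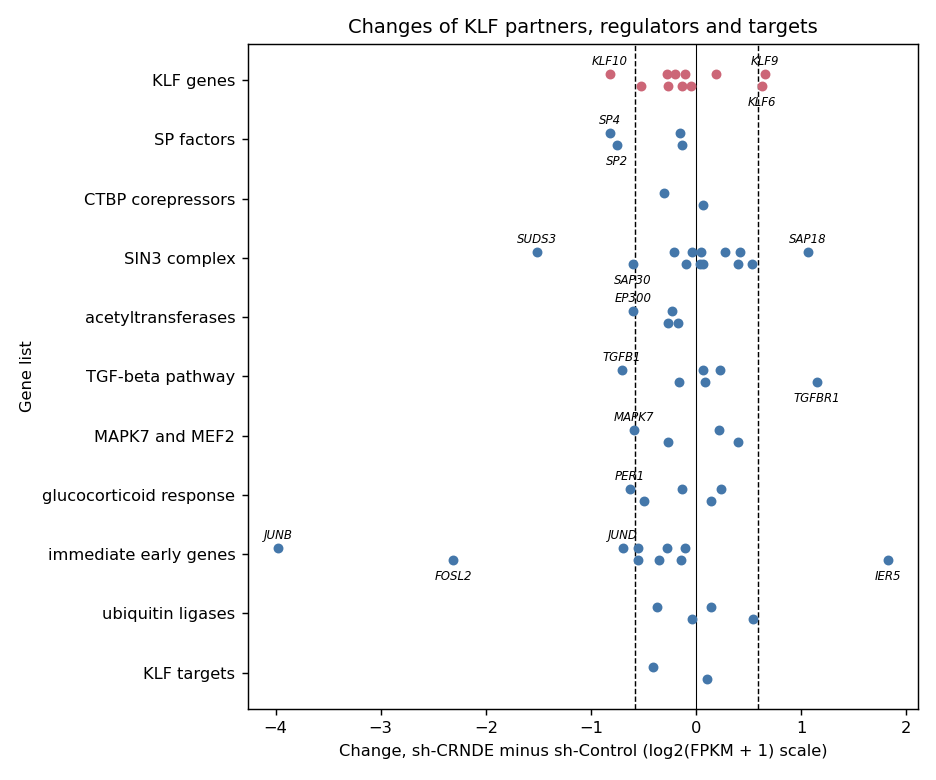
Changes (log2(FPKM + 1) scale) of the KLF genes in red and of the listed genes of each partner, regulator and target list in blue, with dashed lines at 1.5-fold and names for the genes past it. The points of most lists lie on both sides of 0, whereas the 4 SP factors and the 4 acetyltransferases all lie below it.

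Under the other pseudocounts and scalings, KLF9 ran from 0.57 to 1.09, KLF6 from 0.55 to 1.04 and KLF10 from -1.13 to -0.80, each without a change of sign. KLF16 was the only member that changed sign, after the subtraction for GC content.

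**Figure D5:**
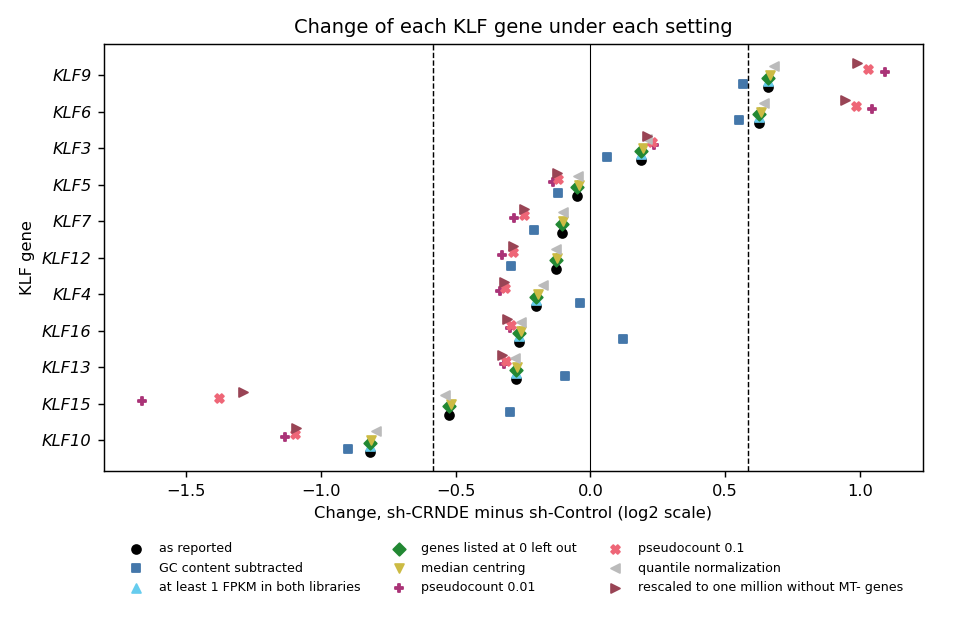
Change of each KLF gene (sh-CRNDE minus sh-Control, log2 scale) as reported and under 8 other settings, with dashed lines at 1.5-fold. KLF10 is past the lower line in every setting, KLF9 and KLF6 are past the upper line in all but the subtraction for GC content, and KLF15 passes the lower line with smaller pseudocounts and after rescaling.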

How the data were processed

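RNA was measured in 2 NB4 libraries, 1 with sh-CRNDE and 1 with sh-Control, grouped by their titles. The authors deposited FPKM values per gene. According to the submitters' processing notes, fastp 0.20.0, HISAT2 2.0.4, StringTie 1.2.3 and GRCh38 were used, and the annotation is not given in the sources used here. FPKM keeps no read counts, so the depth of the libraries is unknown and no counting interval can be given. Deposited genes are above 0.5 FPKM in at least one library, which removes lowly expressed members.

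Changes were computed as log2(FPKM + 1) without further scaling, and the threshold of 1.5-fold follows the study. With 1 library per group no test was run. The members, lists and alternatives were chosen with earlier results of these data known. The text names every KLF gene, CRNDE, markers and, from lists of partners, regulators and targets, genes past 1.5-fold, apart from 1 gene of the marker lists that is not reported here. Other list genes were named after their values were seen, to complete a list. No gene was named for a similar pattern, since a correlation over 2 libraries can only be 1 or -1. The promoters shown, of KLF6 and KLF9, were however chosen for their like level and change, which 1 library per group cannot establish. Identifiers were matched to GENCODE release 44 on GRCh38 (11508 of 11619). The computation of changes was tested on simulated data. Python 3.11.15, numpy 2.4.6, pandas 2.3.3, biopython 1.88 and matplotlib 3.10.9 were used.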

Additional observations from a re-analysis of the deposited data

How the results depend on the processing

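The 11 KLF genes were recomputed with other pseudocounts, scalings and filters. Of 84 values, 78 kept their side of 1.5-fold and their sign. The filters on level and on genes listed at 0 leave the value of each kept gene as it is. Their values are among the 78 and could not differ. The count of KLF genes past 1.5-fold was 3 as reported, 4 with a pseudocount of 0.1 or 0.01 or after rescaling without MT- genes, 1 after subtraction for GC content (the median change of the 500 genes nearest in it), and 0 at 2-fold. The median change of the KLF genes, -0.13 as reported, was -0.29 with a pseudocount of 0.1, -0.30 with 0.01, -0.12 after median centring, -0.29 after rescaling, -0.094 after the subtraction for GC content and -0.20 in the 7 members with at least 1 FPKM in both libraries. Over all genes, 2000 were past 1.5-fold as reported, 3301 with a pseudocount of 0.1, 3481 with 0.01 and 3236 after rescaling. After the subtraction for GC content, 1678 of 11508 genes were past it. The 500 genes for this subtraction were taken from those with a mean of at least 1 FPKM, whereas 4 members lie under that level. No scaling moved the median of all genes by more than 0.02. For genes near 1 FPKM, the pseudocount sets the size by its construction. Rescaling without MT- genes raised all values of both libraries before 1 was added, so it also acted as a smaller pseudocount. The cause of the other differences was not tested. No paired analysis was possible because each group has 1 library, and no replicate could be left out. The unknown depth limits what can be said of the 4 members under 1 FPKM.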
